A study of Mus musculus with 13 samples.

Results

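The aryl hydrocarbon receptor (AHR) pathway was followed in the liver through 8 genes, chosen by their roles: the receptor *Ahr*, its partner *Arnt*, the repressor *Ahrr*, the feedback gene *Tiparp*, the cytochrome P450 genes *Cyp1a1*, *Cyp1a2* and *Cyp1b1*, and the epoxide hydrolase gene *Ephx1*. These are 8 of the 53465 genes in the count table. Of the 8, 7 passed the filter on low counts and entered the test, as did 13545 genes in all, and *Ahrr* did not pass. Liver RNA came from male mice of the inbred BALB/c strain, 6 wild type (WT) and 7 *Nod2*-/-, with 1 library per mouse. *Nod2* encodes an innate sensor of bacterial cell wall fragments, and the *Nod2*-/- mice carry a deletion of it in all cells. Mice of both genotypes received the carcinogen DMBA (dimethylbenz[a]anthracene) on the skin as pups and were then kept on a high fat diet (HFD). The labels give an age of 30 weeks, 30 weeks on the diet and the disease state cancer for all of them. The study gives a slightly longer time on the diet. It also reports liver tumors in most *Nod2*-/- males but in a minority of WT males under this regimen, and that *Nod2*-/- males gained more weight. Genotype therefore cannot be told apart here from tumor load or body weight. The label cancer need not mean that every mouse had a tumor. According to the study's methods, WT and *Nod2*-/- mice were bred separately, not as littermates, and came from several cages and breeder pairs. No mice without DMBA or without HFD are in the count table, so the comparison is between genotypes under the regimen and does not measure a response to DMBA.

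AHR is a cytosolic receptor that binds planar aromatic compounds, among them polycyclic aromatic hydrocarbons such as DMBA and compounds made from tryptophan. It is held by a chaperone complex, moves to the nucleus when a ligand binds, pairs with ARNT and binds DNA at xenobiotic response elements, whose core is GCGTG. In liver it is best known for raising *Cyp1a1* and *Cyp1a2*, and the DMBA it senses is itself turned into a DNA-reactive diol epoxide by CYP1B1 together with the microsomal epoxide hydrolase EPHX1.

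The sequences upstream of the 4 enzyme genes are shown because these genes varied together or in opposite directions from mouse to mouse. They were read from RefSeq promoter windows on GRCm38, 5′ to 3′ on the strand of the gene, ending just before the RefSeq start or, for *Cyp1a2*, before the first exon base annotated by GENCODE. Those of *Cyp1a1* and *Ephx1* lie in introns of the longer gene spans that GENCODE gives. Capitals mark the core GCGTG, or CACGC where it lies on the other strand. The regions are chr9:57697363-57697612 (plus strand) for *Cyp1a1*, chr9:57683704-57683905 (minus strand) for *Cyp1a2*, chr17:79715062-79715311 (minus strand) for *Cyp1b1* and chr1:181017570-181017819 (minus strand) for *Ephx1*.
Cyp1a1: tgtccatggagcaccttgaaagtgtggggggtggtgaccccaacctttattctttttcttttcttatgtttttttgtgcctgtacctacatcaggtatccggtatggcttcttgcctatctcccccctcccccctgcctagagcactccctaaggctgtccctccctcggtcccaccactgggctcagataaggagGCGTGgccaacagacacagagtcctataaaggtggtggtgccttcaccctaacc
Cyp1a2: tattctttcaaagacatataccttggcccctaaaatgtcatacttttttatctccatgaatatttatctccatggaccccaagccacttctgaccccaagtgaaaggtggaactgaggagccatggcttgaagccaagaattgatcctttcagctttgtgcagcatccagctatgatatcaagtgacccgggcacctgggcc
Cyp1b1: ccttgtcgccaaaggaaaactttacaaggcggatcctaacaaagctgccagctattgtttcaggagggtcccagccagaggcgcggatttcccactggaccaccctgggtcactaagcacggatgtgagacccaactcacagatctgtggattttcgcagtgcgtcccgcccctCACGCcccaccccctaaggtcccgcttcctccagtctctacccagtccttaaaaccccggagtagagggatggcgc
Ephx1: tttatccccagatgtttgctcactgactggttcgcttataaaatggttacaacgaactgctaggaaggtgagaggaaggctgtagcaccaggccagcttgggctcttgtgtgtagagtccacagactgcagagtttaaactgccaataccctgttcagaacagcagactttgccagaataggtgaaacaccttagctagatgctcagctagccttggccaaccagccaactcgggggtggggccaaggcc

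Windows of 250 bases before the start were given for 7 of the 8 genes, and *Ahr* had no entry. The core was present once upstream of *Cyp1a1*, at 54 to 50 bases before the start, and once upstream of *Cyp1b1*, on the other strand at 76 to 72 bases before the start. No core was found in the windows of *Cyp1a2* and *Ephx1*. *Ahrr* held 3 copies, 1 of them within the longer form TNGCGTG, and *Arnt* and *Tiparp* held 1 copy each, the latter on the other strand. Over all 32851 windows, searched on both strands, 28.2% held GCGTG and 4.10% held TNGCGTG. These matches describe letters in a window and do not measure binding.

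Library totals ran from 14886273 to 20579984 counts for WT and from 13824780 to 19391431 for *Nod2*-/-. *Nod2* itself had 0 to 4 counts per WT mouse and 1 to 6 per *Nod2*-/- mouse, too few to check the genotype labels. Hepatocyte markers, including albumin, were abundant in every mouse (10 of 10 genes above 0, summed normalized count 1305023 to 1881807 in WT and 1386678 to 2972820 in *Nod2*-/-). Some libraries stood apart in markers of other cells. Neutrophil markers summed to 15943 in *Nod2*-/- replicate 7 against at most 680 in the other *Nod2*-/- mice and 69.1 to 156 in WT, and stellate cell and endothelial markers were highest in WT replicate 3. Lung epithelium markers summed to 486 to 3951 in WT and 477 to 1315 in *Nod2*-/- mice, of which *Hopx*, present in every liver, was 29.6% and 76.5%. Without *Hopx* the sums were 247 to 3405 and 60.3 to 571, and most of these lung genes, which liver should lack, averaged higher in WT. The surfactant gene *Sftpc* averaged 643 and 74.3 normalized counts (log2 fold change -3.09, edgeR adjusted p = 0.0712). *Napsa* (11.3 and 16.4) and *Foxj1* (3.75 and 6.76) averaged lower in WT. Of the 7 tested lung genes, *Hopx* among them, 5 were lower in *Nod2*-/- mice with an edgeR p under 0.05, against 10.2% of all tested genes. Over 13 mice the sum without *Hopx* gave r = 0.38 with *Cyp1a2*, -0.01 with *Cyp1a1*, 0.42 with *Ephx1* and -0.45 with *Cyp1b1*, and its part in the results was not tested. Because of the neutrophil, stellate cell and endothelial markers, results are also given without WT replicate 3 and *Nod2*-/- replicate 7. This does not address the lung genes, whose sum with *Hopx* was highest in WT replicates 4 (3951) and 2 (2267). In bulk liver fewer cells of a type and less RNA per cell cannot be told apart.

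A normalized count is the number of reads on a gene after rescaling each library, by the TMM factors of edgeR, to a common size. Ranked by length-corrected level (CPM, the library-scaled count, divided by the exon length in kilobases), the order was *Cyp1a2*, *Ephx1*, *Arnt*, *Ahr*, *Tiparp*, *Cyp1a1*, *Cyp1b1* and *Ahrr*. *Cyp1a2*, which encodes the main constitutive CYP1 enzyme of liver, stood at 367 ± 96.5 (SD, n = 6) in WT mice and 190 ± 121 (SD, n = 7) in *Nod2*-/- mice on this scale. *Ephx1* stood at 129 ± 16.2 and 96.1 ± 27.2, while *Cyp1a1*, at 0.462 ± 0.202 and 0.270 ± 0.161, and *Cyp1b1*, at 0.116 ± 0.0458 and 0.190 ± 0.0671, were near the bottom. Among WT mice no neighbours in the order overlapped. In *Nod2*-/- mice 3 pairs did: *Cyp1a2* exceeded *Ephx1* in 5 of 7 mice, *Arnt* exceeded *Ahr* in 6 of 7, and *Cyp1a1* exceeded *Cyp1b1* in 3 of 7, against 6 of 6 WT mice for each pair.

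**Figure D1:**
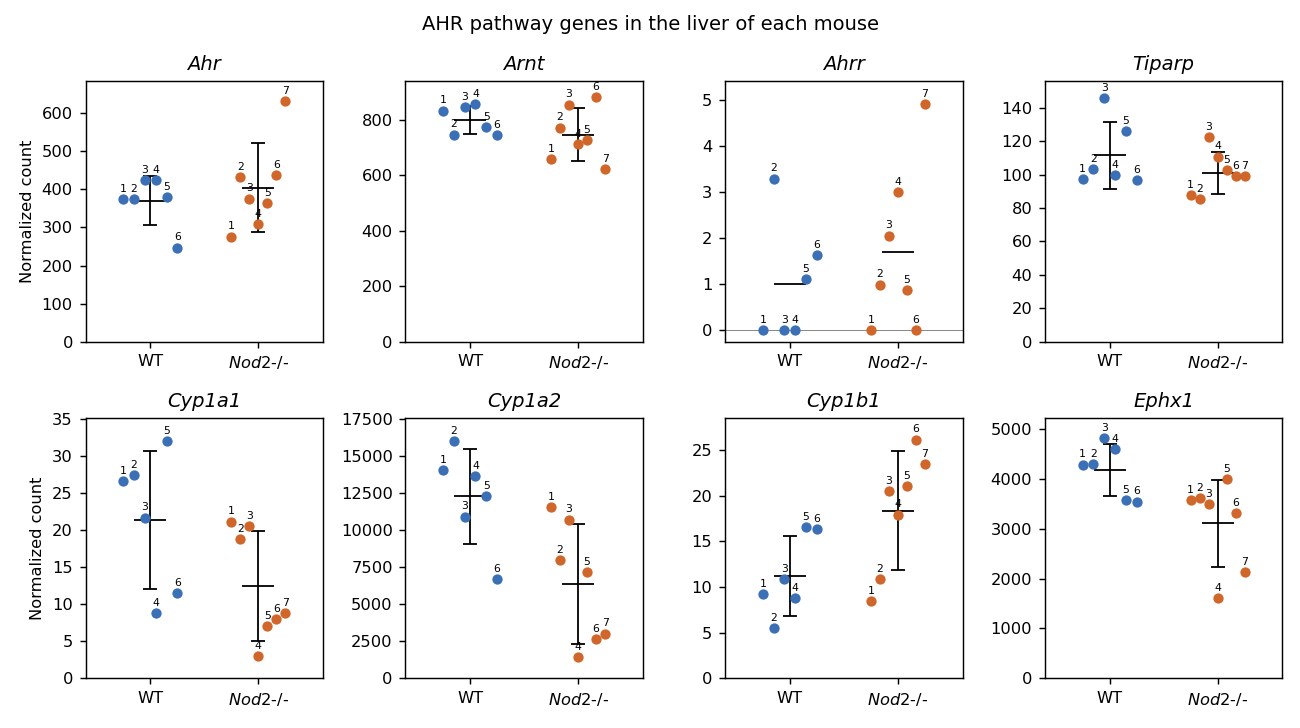
Normalized counts (linear axes from 0) of the 8 AHR pathway genes in each WT and *Nod2*-/- mouse, numbered by replicate, with a horizontal bar for the mean and vertical bars for the SD (no SD drawn for *Ahrr*, whose counts were 0 to 5). *Cyp1a2* and *Ephx1* were lowest in *Nod2*-/- replicate 4, and the genotypes overlap for all 8 genes.

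No difference in the receptor itself passed the test. *Ahr* (chr12:35497974-35535038, minus strand), which encodes the ligand-binding subunit, had a lowest, median and highest normalized count of 247, 377 and 424 in WT and of 276, 376 and 633 in *Nod2*-/- mice. The high value was *Nod2*-/- replicate 7 and the low value WT replicate 6. The fitted log2 fold change was 0.13 ± 0.18 (SE; 95% confidence interval -0.25 to 0.50; edgeR adjusted p = 0.695), and it was -0.02 without *Nod2*-/- replicate 7.

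*Arnt* (chr3:95434388-95497240, plus strand), the shared dimerization partner of AHR and the hypoxia-inducible factors, was the least variable gene of the 8 in WT mice. It ranged over 744, 804 and 855 (lowest, median, highest) in WT and 621, 725 and 882 in *Nod2*-/- mice, with 4 *Nod2*-/- mice below all WT mice and 1 above. The difference on the log2 scale was -0.10 ± 0.088 (SE; interval -0.29 to 0.09; adjusted p = 0.511). *Tiparp* (chr3:65528410-65555518, plus strand), an AHR target whose product ADP-ribosylates AHR and limits its activity, ran from 96.6 through 101 to 146 in WT and from 85.3 through 99.0 to 122 in *Nod2*-/- mice. Its log2 fold change was -0.14 ± 0.13 (SE; interval -0.42 to 0.14; adjusted p = 0.533).

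*Ahrr* (chr13:74211118-74292331, minus strand), a target that competes with AHR for ARNT, was near the limit of detection. It had 0 to 3 counts per WT mouse and 0 to 5 per *Nod2*-/- mouse, 6 and 12 counts in all, with 5 of the 13 mice at 0. Most of these values lie within the 3 counts that a library showing 0 could hide, so no difference was detectable at this depth (two-sided exact permutation test, p = 0.458).

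Among the enzyme genes *Cyp1a2* had the widest relative spread in *Nod2*-/- mice. *Cyp1a2* (chr9:57676937-57683703, minus strand) had a lowest, median and highest normalized count of 6697, 12961 and 16002 in WT and of 1411, 7173 and 11520 in *Nod2*-/- mice. *Nod2*-/- replicates 4, 6 and 7, at 1411, 2626 and 3010, fell below every WT mouse, while the other 4, at 7173 to 11520, lay within the WT range. The highest value was 2.39 times the lowest in WT and 8.16 times the lowest in *Nod2*-/- mice. The log2 fold change was -0.95 ± 0.41 (SE; interval -1.83 to -0.07), with an edgeR p of 0.0362 before and 0.188 after adjustment, and a two-sided exact permutation p of 0.0303.

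*Cyp1a1* (chr9:57687928-57703824, plus strand), the neighbour of *Cyp1a2* on chromosome 9 and the classical sentinel of ligand-activated AHR, was scarce in both genotypes. Its lowest, median and highest normalized counts were 8.77, 24.2 and 32.04 in WT and 2.99, 8.82 and 21.2 in *Nod2*-/- mice. *Nod2*-/- replicates 4, 5 and 6 were below all WT mice, replicate 7 and WT replicate 4 were level, and replicates 1 to 3 were within the WT range. The log2 fold change was -0.77 ± 0.42 (SE; interval -1.65 to 0.12; adjusted p = 0.280; exact permutation p = 0.103), and it rests on 126 counts in all WT mice and 86 in all *Nod2*-/- mice.

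*Ephx1* (chr1:180976210-181020904, minus strand), which opens epoxides to diols and is needed for the DMBA diol epoxide, had lowest, median and highest normalized counts of 3545, 4289 and 4818 in WT and of 1615, 3496 and 3995 in *Nod2*-/- mice. The low values were again *Nod2*-/- replicates 4 and 7, at 1615 and 2136, and 4 *Nod2*-/- mice were below all WT mice. On the log2 scale the difference was -0.43 ± 0.18 (SE; interval -0.82 to -0.04), with p = 0.0345 before and 0.184 after adjustment by edgeR and an exact permutation p of 0.0210.

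*Cyp1b1* (chr17:79701537-79715061, minus strand), the CYP1 enzyme that activates DMBA and that is mainly made outside hepatocytes, had its values on the other side. Its lowest, median and highest normalized counts were 5.48, 10.04 and 16.6 in WT and 8.46, 20.5 and 26.2 in *Nod2*-/- mice, and 5 of 7 *Nod2*-/- mice were above all WT mice. Its log2 fold change was 0.70 ± 0.31 (SE; interval 0.03 to 1.36), with p = 0.0407 before and 0.198 after adjustment by edgeR and an exact permutation p of 0.0565, from 69 counts in WT and 128 in *Nod2*-/- mice.

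None of the 7 tested members passed 5% FDR, where 1.16% of all tested genes did by edgeR. By DESeq2, 0 of 7 passed against 8.41% of genes. With p under 0.05 before adjustment stood 3 of 7 members against 23.1% of all tested genes, namely *Cyp1a2* and *Ephx1* lower (background 10.2% of genes lower) and *Cyp1b1* higher (background 12.9% higher). Groups did not overlap for 0 of 7 members and for 1.44% of all tested genes. The median log2 fold change of all tested genes was 0.02. Without WT replicate 3 and *Nod2*-/- replicate 7, the log2 fold change was -0.86 for *Cyp1a2*, -0.69 for *Cyp1a1*, -0.31 for *Ephx1* and 0.61 for *Cyp1b1*, with adjusted p from 0.263 to 0.404.

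**Figure D2:**
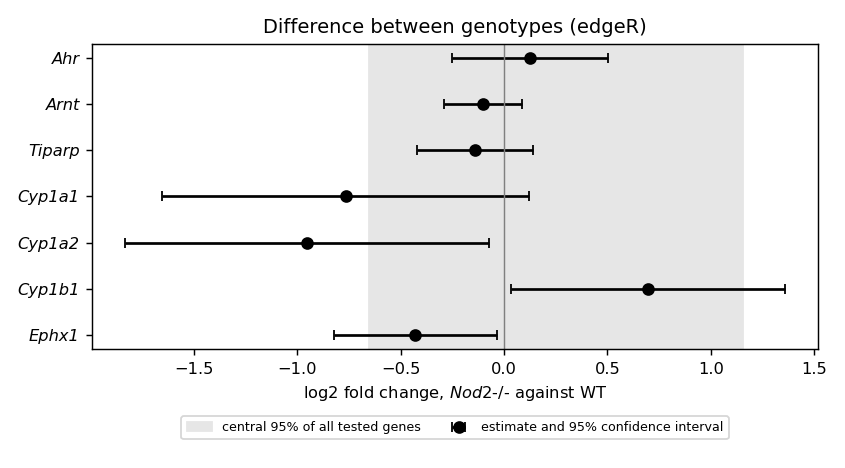
Log2 fold change of *Nod2*-/- against WT mice for the 7 tested AHR pathway genes, with 95% confidence intervals from edgeR, and the central 95% of all 13545 tested genes (-0.65 to 1.16) in grey. The intervals of *Cyp1a2*, *Ephx1* and *Cyp1b1* leave out 0 before adjustment, and none passes 5% FDR.

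Several of the enzyme genes varied together over the 13 mice. All 21 pairs of the 7 tested members were correlated over these mice on log2 CPM. Permutation tests used 100000 resamples, with Benjamini-Hochberg adjustment over the pairs. They shuffled mice without regard to genotype, so the p-values, here and for marker sums, include any offset between genotypes. No test was made within genotypes. *Cyp1a2* varied with *Ephx1* (Pearson r = 0.86, adjusted permutation p = 0.00651; Spearman rho = 0.77, adjusted p = 0.0230). Without the 2 mice farthest from the median of *Cyp1a2*, *Nod2*-/- replicates 4 and 6, r was 0.83, and within genotypes it was 0.52 in WT and 0.83 in *Nod2*-/- mice. *Cyp1a1* and *Cyp1a2* gave r = 0.82 (adjusted permutation p = 0.00651) and rho = 0.77 (adjusted p = 0.0230), with r = 0.73 without *Nod2*-/- replicates 4 and 5, 0.44 within WT and 0.88 within *Nod2*-/- mice.

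*Cyp1a2* and *Cyp1b1* went in opposite directions, with rho = -0.80 (adjusted permutation p = 0.0230) and r = -0.69 (adjusted permutation p = 0.0585). The value of r was -0.72 without *Nod2*-/- replicates 4 and 6, -0.75 within WT and -0.53 within *Nod2*-/- mice. Over all mice, *Ahr* gave r of -0.02 with *Cyp1a1*, -0.13 with *Cyp1a2*, 0.22 with *Cyp1b1* and -0.06 with *Ephx1*. Within genotypes the values were 0.27, 0.80, -0.49 and 0.74 in WT and -0.05, -0.24, 0.54 and -0.14 in *Nod2*-/- mice, in the same order. Without *Nod2*-/- replicate 7 and WT replicate 6 they were 0.11, 0.14, 0.11 and 0.49. *Ahr* and *Arnt* gave r = 0.04 over all mice and 0.82 without *Nod2*-/- replicate 7 and WT replicate 6, so the value depends on those mice. The other pairs of members did not pass the adjusted threshold in either measure.

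**Figure D3:**
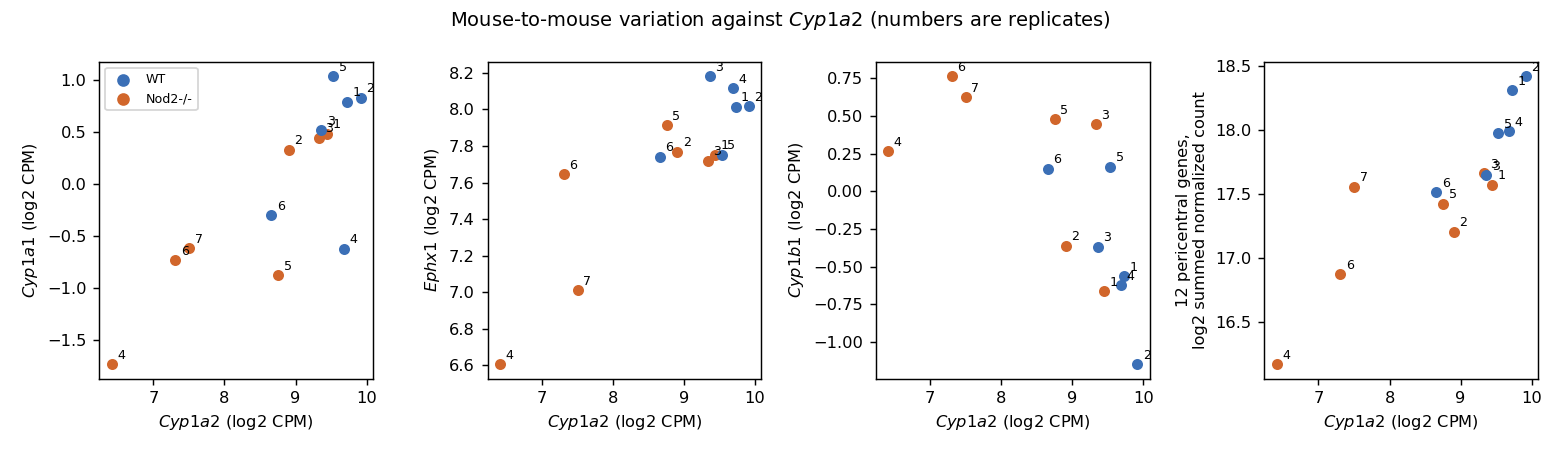
Each mouse by its *Cyp1a2* level (log2 CPM, x axes) against *Cyp1a1*, *Ephx1* and *Cyp1b1* (log2 CPM) and against the log2 summed normalized count of 12 pericentral hepatocyte genes, most of it *Cyp2e1*, with WT in blue and *Nod2*-/- in orange. *Cyp1a1*, *Ephx1* and the pericentral sum were lowest in *Nod2*-/- replicate 4 and rose with *Cyp1a2*, with the genotypes overlapping, while *Cyp1b1* fell (r = -0.69).

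Markers of cell types and liver zones moved with the same genes. Relations with marker sums, here and below, were added after seeing the data, so their p-values only describe. *Cyp1a2* is normally made by hepatocytes around the central vein, and a list of 12 genes of these cells, which does not hold *Cyp1a2*, summed to 186933 to 351013 normalized counts in WT and 73887 to 207430 in *Nod2*-/- mice, with none of the 12 at 0 in all mice. The sum was mostly *Cyp2e1*, another P450 gene, which made up 64.4% of it in WT and 55.7% in *Nod2*-/- mice. Over 13 mice, *Cyp1a2* followed this sum with r = 0.88 (permutation p adjusted over 70 relations 0.0084) and rho = 0.92 (adjusted p = 0.0014). The value of r was 0.74 without *Nod2*-/- replicate 4 and WT replicate 2, 0.89 within WT and 0.81 within *Nod2*-/- mice. *Cyp1a1* gave r = 0.76 (adjusted permutation p = 0.0731) and rho = 0.75 (adjusted p = 0.0506). *Ephx1* gave r = 0.72 (adjusted permutation p = 0.129) and rho = 0.63 (adjusted p = 0.175). For *Ephx1*, r was 0.34 without *Nod2*-/- replicate 4 and WT replicate 2, 0.23 within WT and 0.64 within *Nod2*-/- mice. Of these 12 genes 6 were higher and 6 lower in *Nod2*-/- mice and 0 passed 5% FDR, while 1 higher and 4 lower had an edgeR p under 0.05. Without *Cyp2e1* the sum gave r = 0.83 and rho = 0.87 with *Cyp1a2*, also a description added after seeing the data. The list was not uniform: gene by gene, r with *Cyp1a2* was positive for 7 and negative for 5 of the 12. *Rgn* (0.92), *Slco1b2* (0.92), *Cyp2e1* (0.88), *Oat* (0.67), *Gulo* (0.64) and *Slc1a2* (0.50) gave the highest values. *Glul* (-0.00403), *Tbx3* (-0.13), *Axin2* (-0.16), *Lgr5* (-0.18) and *Rhbg* (-0.19), among them targets of Wnt signaling next to the vein, gave the negative ones. Genes of the other hepatocyte lists were also related to *Cyp1a2*, in both directions. Values were 0.83 for *Hnf4a*, 0.80 for *Ttr* and 0.63 for periportal *Cyp2f2*, against -0.92 for *Apoa1*, -0.80 for *Fgb* and -0.84 for periportal *Sds*.

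The summed neutrophil markers ran against *Cyp1a2* in rank (rho = -0.86, adjusted permutation p = 0.00857; r = -0.61, adjusted p = 0.183) and against *Cyp1a1* (rho = -0.85, adjusted permutation p = 0.00857; r = -0.54, adjusted p = 0.187). They ran with *Cyp1b1* (rho = 0.83, adjusted permutation p = 0.0091; r = 0.67, adjusted p = 0.127). Without *Nod2*-/- replicates 5 and 7, r was -0.79, -0.73 and 0.80. Within genotypes r was -0.74, -0.87 and 0.48 in WT and -0.40, -0.35 and 0.62 in *Nod2*-/- mice. Stellate cell and fibroblast markers, the cells in which *Cyp1b1* is better known, summed to 4081 to 7871 in WT and 4404 to 6221 in *Nod2*-/- mice and gave r = 0.39 (adjusted permutation p = 0.431) and rho = 0.62 (adjusted p = 0.175) with *Cyp1b1*. That r was 0.71 without WT replicates 2 and 3, 0.39 within WT and 0.54 within *Nod2*-/- mice, and *Dcn* made up 42.8% and 48.6% of the sum, without which r was 0.08. The part of these markers in the differences between genotypes was not tested.

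**Figure D4:**
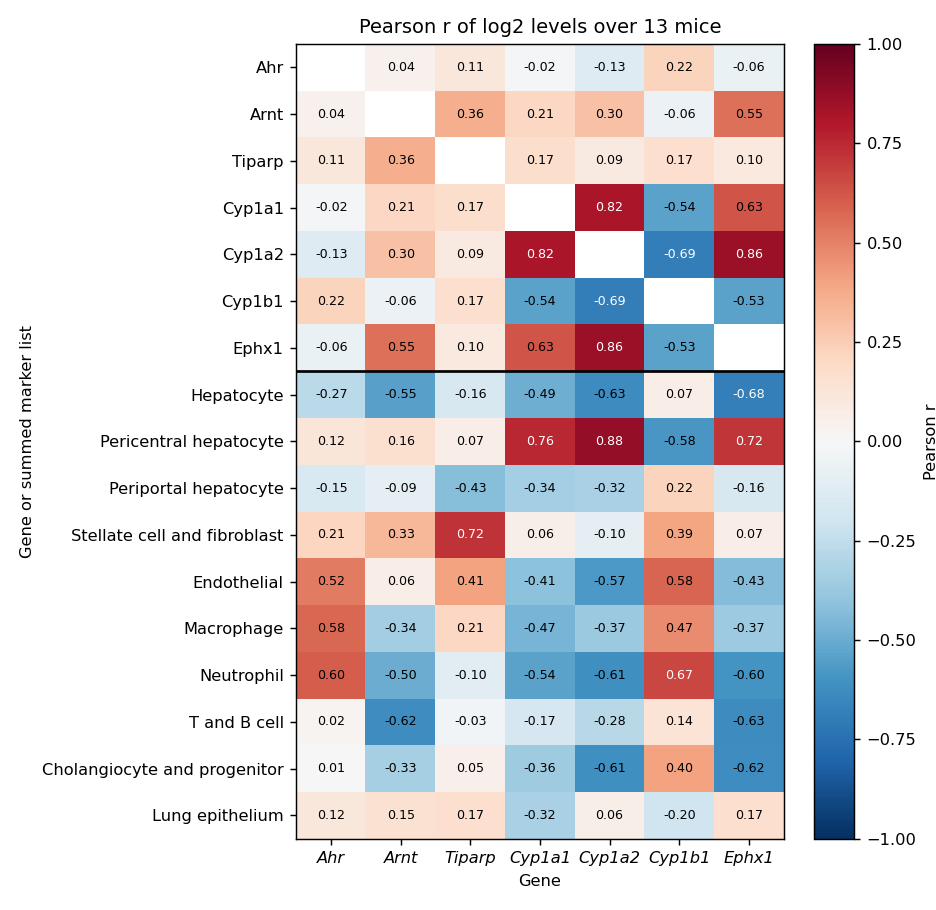
Pearson r over 13 mice between the log2 CPM of the 7 tested AHR pathway genes (columns) and, above the line, the same genes or, below it, the log2 summed counts of 10 marker lists (rows), from -1 in blue to 1 in red. *Cyp1a1*, *Cyp1a2* and *Ephx1* had r from 0.63 to 0.88 with each other and with the pericentral sum, and negative r with *Cyp1b1*. Not all of these relations pass adjustment. Over all mice the r of *Ahr* with the 4 enzyme genes runs from -0.13 to 0.22.

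For each tested member the genes with the most similar deviations from the genotype mean were sought among 11507 genes over the 13 mice, as a description. *Cyp1a2* was closest to *Cat*, the catalase of peroxisomes (r = 0.98), and to the glucuronosyltransferase gene *Ugt3a1* (r = 0.97). *Cyp1a1* was closest to the zinc finger genes *Zfp758* (r = 0.96) and *Tshz1* (r = 0.93), *Ephx1* to *Tmem35b* (r = 0.96) and *Pkp4* (r = 0.94), and *Cyp1b1* to *Zfp703* (r = 0.93) and *Ccdc80* (r = 0.91). *Ahr* was closest to *Ints6l* (r = 0.87) and *Eif2d* (r = 0.85), *Arnt* to *Cdan1* (r = 0.86) and *Mug1* (r = 0.85), and *Tiparp* to *C1qtnf1* (r = 0.83) and *Lamb1* (r = 0.81).

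The genes around the pathway were read from lists by role. Of the chaperone complex that holds AHR in the cytosol, 8 of 8 genes were tested, 7 were lower and 1 higher in *Nod2*-/- livers (median -0.26 on the log2 scale, against 0.02 over all tested genes), and 0 passed 5% FDR by edgeR, DESeq2 or voomWithQualityWeights, 3 having an edgeR p under 0.05. *Dnaja1*, an HSP40 protein, had a log2 fold change of -0.40 (edgeR adjusted p = 0.178). Of 9 relatives with bHLH-PAS domains 4 were tested, 3 higher and 1 lower, with 0 past 5% FDR and 0 with p under 0.05 by edgeR, and 0 by voomWithQualityWeights. DESeq2, which filters genes differently, called 1, *Arnt2*, which edgeR's filter left out (log2 fold change 3.09, DESeq2 adjusted p = 0.0329). *Arnt2* was named after its values were seen. Its normalized counts were low, 1.44 ± 1.72 (SD, 0 to 4.52) in WT and 12.5 ± 14.4 (SD, 0 to 33.9) in *Nod2*-/- mice, and the groups overlapped. *Epas1*, the hypoxia-inducible factor HIF-2α, had a value of 0.21 (adjusted p = 0.398) and the clock gene *Arntl* of 0.51 (adjusted p = 0.550). Of 14 tested coregulators 4 were higher and 10 lower, with a median of -0.08 and 0 past 5% FDR by edgeR, DESeq2 or voomWithQualityWeights, 2 having an edgeR p under 0.05. The corepressor *Ncor1* had a value of -0.32 (adjusted p = 0.139), and *Nfe2l2*, the oxidative stress factor NRF2, of 0.32 (adjusted p = 0.158).

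Among 15 tested of 20 further genes known as AHR targets, 7 were higher and 8 lower (median -0.07). Of them 1 passed 5% FDR by edgeR, 4 by DESeq2 and 2 by voomWithQualityWeights. An edgeR p under 0.05 was found for 2 higher and 5 lower genes. *Fgf21*, a liver hormone of fasting and metabolic stress, rose from 87.1 ± 23.9 normalized counts (SD, n = 6) in WT to 283 ± 153 (SD, n = 7) in *Nod2*-/- mice, a log2 fold change of 1.70 ± 0.32 (SE; edgeR adjusted p = 0.0261). The groups overlapped, and this call was lost when WT replicate 1, 2 or 4 was left out, with log2 fold changes of 1.59, 1.70 and 1.63. *Ugt1a6b*, an isoform of the phenol glucuronosyltransferase locus, had a value of -0.85 (edgeR adjusted p = 0.0659). It was called by DESeq2 (adjusted p = 0.00788) and by voomWithQualityWeights (adjusted p = 0.0435). The isoforms of the Ugt1a locus share exons, so their separate counts are uncertain.

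Of 18 genes for DMBA activation and electron supply 15 were tested, 7 higher and 8 lower (median -0.04), and 0 passed 5% FDR by edgeR, with 6 at p under 0.05. DESeq2 called 2, *Por* (adjusted p = 0.00683) and *Ptgs1* (adjusted p = 0.0314), and voomWithQualityWeights 1, *Por* (adjusted p = 0.0228). *Por*, the reductase that passes electrons to all microsomal P450 enzymes, stood at 8358 ± 1984 normalized counts in WT and 4654 ± 1510 in *Nod2*-/- mice (log2 fold change -0.84, adjusted p = 0.0659), and *Ptgs1*, a cyclooxygenase able to oxidize such compounds, had a value of 0.84 (adjusted p = 0.0929). Of 22 conjugation genes 19 were tested, 8 higher and 11 lower (median -0.32), and 1 passed by edgeR, 3 by DESeq2 and 2 by voomWithQualityWeights. An edgeR p under 0.05 was found for 1 higher and 8 lower genes of this list. *Gstt2*, a theta-class glutathione transferase whose paralogs could share its reads, fell from 1482 ± 432 normalized counts (SD, n = 6) to 823 ± 142 (SD, n = 7), a log2 fold change of -0.85 ± 0.18 (SE; adjusted p = 0.0422), and the groups overlapped. The call was lost without any 1 of 9 of the 13 mice, namely WT replicates 1, 2, 4 and 6 and *Nod2*-/- replicates 2, 4, 5, 6 and 7, with log2 fold changes from -0.87 to -0.76. *Ugt1a1*, the bilirubin glucuronosyltransferase, had a value of -0.91 (edgeR adjusted p = 0.0585). It was called by DESeq2 (adjusted p = 0.00323) and by voomWithQualityWeights (adjusted p = 0.0355).

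Enzymes of the kynurenine route, which makes AHR ligands from tryptophan, were 1 higher and 8 lower among 9 tested of 11 listed (median -0.35), with 0 past 5% FDR by edgeR and 4 at p under 0.05. DESeq2 called 2, *Aadat* (adjusted p = 0.0302) and *Kmo* (adjusted p = 0.0429), and voomWithQualityWeights 1, *Aadat* (adjusted p = 0.0482). *Aadat* (kynurenine aminotransferase) had a log2 fold change of -0.57 (edgeR adjusted p = 0.0923) and *Kmo* (kynurenine 3-monooxygenase) of -0.51 (adjusted p = 0.109). In these lists as in the members, 1.16% of all tested genes give the background for edgeR's calls at 5% FDR and 8.41% that for DESeq2's. For an edgeR p under 0.05 the background is 23.1% of all tested genes, 10.2% lower and 12.9% higher. The calls of voomWithQualityWeights over all genes are given below.

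**Figure D5:**
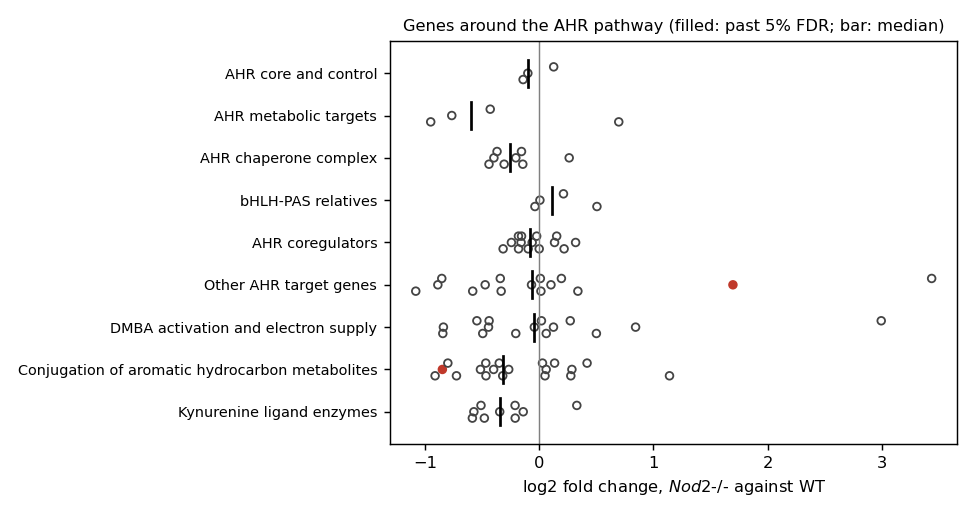
Log2 fold changes of *Nod2*-/- against WT mice (x axis) for the tested genes of the 2 member lists and 7 related lists (rows), 1 point per gene, filled where past 5% FDR, with a bar at the median of each list. *Fgf21* (1.70) and *Gstt2* (-0.85) are the filled points, and the medians run from -0.60 for the metabolic members to 0.11 for the bHLH-PAS relatives.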

How the data were processed

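Strand-specific libraries were made from polyadenylated liver RNA of individual mice. Per the submitters' processing notes the authors used Trimmomatic 0.33 and TopHat2 2.1.1 with GRCm38, and they deposited raw counts, 1 whole number for each gene in each mouse. The counting program and its strand setting are not given in the sources used here, so overlapping genes are uncertain (genes antisense to *Ahr* and *Tiparp* had 0 to 2 and 1 to 8 counts per mouse). Genotypes came from the labels.

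In R 4.3.3, filterByExpr kept 13545 of 53465 genes, which held 99.86% of counts, and 1 nameless entry was dropped. These were tested with edgeR 4.0.16 (TMM, quasi-likelihood, two-sided, without covariates), and p was adjusted over all tested genes by the Benjamini-Hochberg procedure at 5% FDR. Log2 CPM used a prior count of 2. Exact permutation tests over the 1716 splits of the mice have a smallest p of 0.000583. The alternatives were DESeq2 1.42.0 (the tool of the study), voomWithQualityWeights of limma 3.58.1, RLE size factors, no filter, removal of the 20 most abundant genes, a prior count of 0.5 for correlations, a replicate block and leaving out each mouse. The fit was tested on simulated data. Libraries of the same genotype differed beyond sampling noise (36 pairs, chi-square per degree of freedom 11.4 to 179).

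The members and gene lists were chosen with earlier results of these data known, and the relations with marker sums and the removal of WT replicate 3 with *Nod2*-/- replicate 7 were added after seeing the data. Named genes are the members, genes of each list past 5% FDR and, where under 2 were, up to 2 others with the smallest p, and for each member the 2 genes of log2 CPM 1 or more most like it. Results for some single genes that this rule names are not reported here. Positions are from GENCODE annotation of GRCm38 and promoter windows from RefSeq GRCm38.p6. Detection floors cover counting error only.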

Additional observations from a re-analysis of the deposited data

Results flagged for a closer look

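Of 38 groups of values examined (each member, each marker sum and the library total in each genotype), 6 held a mouse that Dixon's outlier test flagged. That test assumes normally distributed values, and the groups share the same mice, so the number expected by chance is not known. The normalized count of *Ahr* was 247 in WT replicate 6, with the nearest WT mouse at 374. Hepatocyte markers summed to 2972820 in *Nod2*-/- replicate 4, with the nearest mouse of that genotype at 1932480. In WT replicate 3, stellate cell and fibroblast markers summed to 7871 (nearest 5236) and endothelial markers to 5357 (nearest 4292). In *Nod2*-/- replicate 7, macrophage markers summed to 4807 (nearest 2838) and neutrophil markers to 15943 (nearest 680).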

How the results depend on the processing

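No tested member passed 5% FDR under any of the 20 alternatives run for each, and all kept their direction in all of them except *Ahr*, which was -0.017 with the replicate block and from -0.016 (without *Nod2*-/- replicate 7) to 0.19 when 1 mouse was left out. The log2 fold change ranged from -1.18 to -0.77 for *Cyp1a2* (adjusted p 0.110 to 0.331), from -0.95 to -0.59 for *Cyp1a1*, from -0.50 to -0.31 for *Ephx1* (0.118 to 0.341) and from 0.56 to 0.84 for *Cyp1b1* (0.114 to 0.358). The number of genes called over the whole table depended on the setting. Against 88 higher and 69 lower genes, DESeq2 called 630 and 579, voomWithQualityWeights 519 and 324, and the replicate block, over mice 1 to 6 of each genotype, 15 and 17. Leaving out 1 mouse gave 20 to 697 higher and 20 to 459 lower, the highest counts without WT replicate 3, and leaving out WT replicate 3 with *Nod2*-/- replicate 7 gave 408 and 159. The cause was not tested. Replicate numbers did not pair the mice: deviations of same-numbered mice correlated with r from -0.30 to 0.30, over 0.1 in 1 of 6 pairs, and 0 of 6 WT mice correlated best with their own number. Under the replicate block the calls of *Fgf21* and *Gstt2* were lost. Every correlation between members kept its direction and its side of the threshold with another prior count and with RLE size factors. Over 53 results and 682 alternatives, 587 stayed as they were, 14 lost and 22 gained a call, 57 moved in count and 2 reversed. Depth limits *Cyp1a1*, *Cyp1b1* and above all *Ahrr*.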

Other observations

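Summed hepatocyte markers, mostly albumin, ran against *Arnt* in rank over the 13 mice (rho = -0.84, permutation p adjusted over 70 relations 0.00857), while r was -0.55 (adjusted permutation p = 0.187) and -0.58 without *Nod2*-/- replicate 4 and WT replicate 4. Albumin (*Alb*) made up 68.8% of this sum in WT and 69.3% in *Nod2*-/- mice. Without *Alb* the sum gave r = -0.37 and rho = -0.47 with *Arnt*, and r of single genes ran from -0.57 for *Alb* and *Tat* to 0.49 for *Cps1*.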
